A study of Saccharomyces cerevisiae with 227 samples.

Results

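The earliest sample of an aerobic yeast culture after its gas supply was switched to nitrogen is described here, across all genes of the array. The samples were wild-type cells of strain JM43 (MATα, auxotrophic for leucine, histidine, tryptophan and uracil) taken 0.04 generations after the switch to O2-free N2, and their control was the same strain at 0 generations, the last aerobic sample before the switch. Members were all arrays with these 2 labels, 3 arrays each, so 6 of the 227 arrays of the series, and each holds 1 value for each of 5609 open reading frames. Cells grew in sparged fermentors on SSG-TEA, a semi-synthetic galactose medium. Both groups carry the same auxotrophies. The labels call the gas O2-free N2, while the study's methods, written for its antimycin A cultures, describe N2 with CO2 added, and whether CO2 was also in the gas here is not given in the sources used. Total RNA of each sample was labelled with Cy3 and hybridized with a Cy5-labelled reference, per the labels a pool of RNA from all the time points, so a value is the log2 ratio of a sample over that pool, and a change is the mean at 0.04 generations minus the mean at 0 generations.

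Galactose, unlike glucose, leaves respiration largely unrepressed in Saccharomyces cerevisiae, so cells in this medium draw on mitochondrial electron transport and lose it when oxygen is removed. A sudden loss of energy supply or a change of sugar is known in yeast to act on the protein kinase A, TOR and Snf1 pathways: transcripts for ribosome assembly and for entry into S phase are then reduced, and transcripts for sugar uptake, storage carbohydrates and stress protection are raised, the last partly through the transcription factors Msn2 and Msn4. Genes repressed by oxygen through haem, the classical hypoxic genes, respond later.

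The 3 arrays at 0.04 generations correlated with each other at 0.81 to 0.84, the 3 control arrays at 0.70 to 0.86, and arrays of different groups at 0.54 to 0.62. Control replicate 1 lay nearer to the N2 arrays than the other controls did: over the genes called higher, the median level was 0.54, 0.53 and 0.45 on the N2 arrays, against -0.41, -0.65 and -0.77 on control replicates 1 to 3. Array medians lay between 0.02 and 0.05, so a shift shared by all transcripts would not be seen. The labels say nothing of separate cultures, so p-values measure the spread between these samples. Which fermentor run gave which sample is not stated, and cells were washed at harvest with de-oxygenated or oxygenated water according to their gas, so these differences and the change of gas cannot be told apart.

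A run of 359 consecutive rows of the table, ordered by open reading frame and labelled YOR349W to YPR057W, did not follow its gene names in the N2 galactose arrays. Across these rows and 3 sampled times (0.04, 0.08 and 0.19 generations) the changes in N2 correlated at 0.05 with the changes after antimycin A in air and at 0.07 with those of an msn2/4 mutant in N2, whereas the other 5250 rows gave 0.77 and 0.66. The run was placed where the agreement of N2 with these series was lowest, so low values inside it follow in part from that choice. The correlation of antimycin A with the mutant, which was not used to place the run, was 0.67 inside the run and 0.66 outside it. The 10 cytosolic ribosomal protein genes in the run had a median correlation of 0.19 with the median course of the ribosomal protein genes outside it. The 122 outside, from which that course was taken, had 0.91. The 10 inside had 0.85 after antimycin A and 0.97 in the mutant. The cause was not tested. In the N2 glucose arrays the run was also in doubt: their changes correlated with those after antimycin A at -0.05 inside it and -0.43 outside, and with those of the mutant at -0.06 and -0.27, and the 10 ribosomal protein genes had a median correlation of 0.46, against 0.62 for the others. Rows of this run are therefore counted but not described as genes, and counts are given with and without them.

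**Figure D1:**
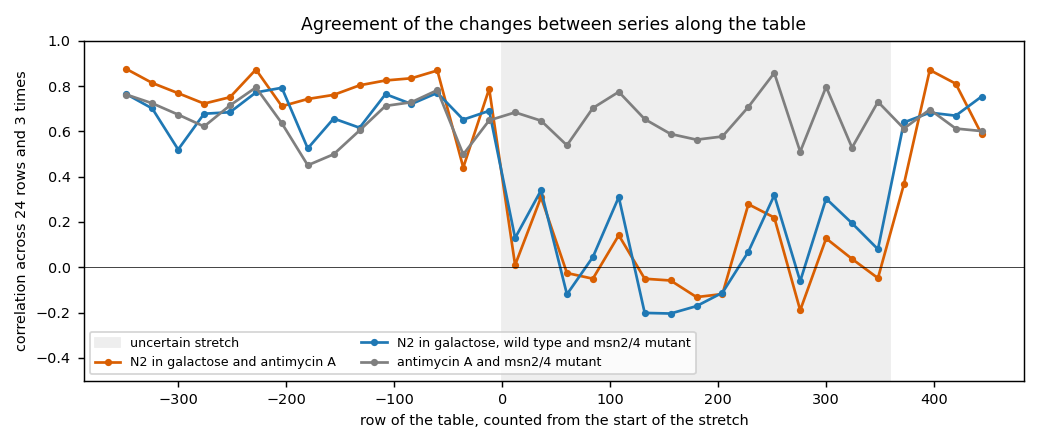
Agreement between series along the end of the table, as the correlation of log2 changes over successive windows of 24 rows and 3 times (y axis) against the row counted from the start of the uncertain stretch (x axis). Inside the grey stretch of 359 rows the 2 lines that include N2 in galactose drop towards 0, and the line of antimycin A against the msn2/4 mutant stays near its outside level of 0.66.

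At 0.04 generations the transcripts of 200 genes differed from the aerobic control at a Holm-adjusted p of at most 0.01 (limma), which is 3.57% of the 5609 tested, 115 of them higher (2.05%) and 85 lower (1.52%). Those that were higher included genes of hexose transport, glycogen and trehalose synthesis and amino acid and urea uptake, and those that were lower included genes of ribosome assembly, RNA polymerase I and the G1/S transition. The median gene did not move (log2 change -0.01), the median called rise was 1.19 and the median called fall was -1.0, and 68 rises and 42 falls were at least 2-fold. In all 200 the arrays of the groups did not overlap, as was also so for 31.9% of all genes tested. Without the uncertain rows the counts were 183 of 5250 genes (3.49%), 108 higher (2.06%) and 75 lower (1.43%), and the values below refer to these 183 genes unless stated. The counts of called genes in each list below are to be read beside these shares. Of the 183, 122 (77 higher and 45 lower) kept their call when any 1 of the 6 arrays was left out, and none changed direction. Leaving out control replicate 1 gave 203 calls, 135 higher and 68 lower. The count rests on the spread estimated from all 33 arrays of the time course to 3 generations, since the 6 arrays alone gave 32 calls. Leaving out replicate 2 at every time point, which also takes arrays from that spread, gave 69. Leaving out single arrays of the 6 gave 152 to 203.

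**Figure D2:**
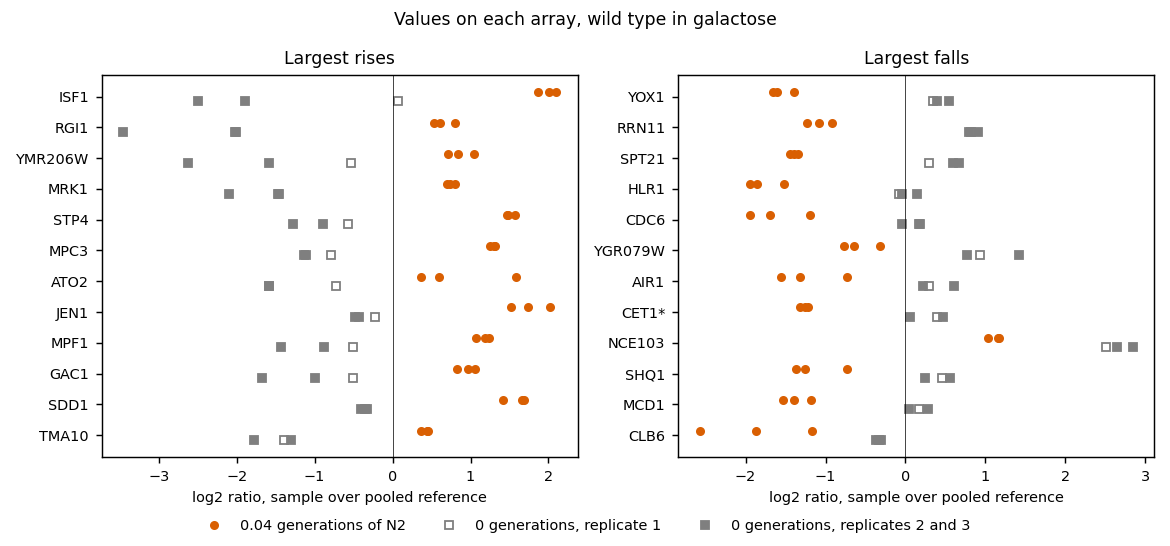
Log2 ratio over the pooled reference (x axis) on each array for the 12 largest rises (left) and the 12 largest falls (right), with 0.04 generations of N2 as orange circles above and 0 generations as grey squares below, open for control replicate 1. The groups do not overlap in any of the 24 rows, and the widest control spread is that of ISF1, from -2.50 to 0.07. CET1, marked with an asterisk, is a row of the uncertain stretch.

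The largest rise among called genes was in ISF1, a gene linked to mitochondrial function, with log2 ratios of 2.10, 2.01 and 1.86 in N2 and of 0.07, -1.89 and -2.50 in the control, a change of 3.43 ± 0.32 (SE; adjusted p = 2.95e-07). The N2 arrays were close together, and control replicate 1 stood well above the other controls. RGI1, required for full respiratory growth, had 0.61, 0.53 and 0.80 in N2, against -2.03, -2.01 and -3.46 in the control (3.14 ± 0.21, adjusted p = 1.55e-10). MRK1, a kinase of the glycogen synthase kinase 3 family, had 0.81, 0.74 and 0.70 in N2 and -1.47, -1.46 and -2.10 in the control, a rise of 2.42 ± 0.11. In both genes the lowest N2 array lay more than 2 units above the highest control. MPC3, a subunit of the mitochondrial pyruvate carrier, was at 1.25, 1.31 and 1.31 in N2 and at -0.80, -1.11 and -1.14 in the control, a rise of 2.30 ± 0.11. Genes of less well described function were also among the 12 largest rises: YMR206W rose by 2.44 ± 0.26, MPF1 by 2.10 ± 0.14 and SDD1 by 1.95 ± 0.11. ATO2, a membrane protein of the ammonium and acetate transporter family, rose by 2.15 ± 0.34, but its call was lost without N2 replicate 2 or 3 or without control replicate 2 or 3 (adjusted p up to 0.16).

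Hexose transport and phosphorylation gave 14 of the 108 rises. Of 25 measured genes of this kind 14 were called higher (56%, against 2.06% of all genes) and none lower. Their median change was 0.92 against -0.01 for all genes, and 12 of the 14 kept their call with any single array left out. HXT6 and HXT7 share all their values, as do HXT15 and HXT16, so these are 23 different sets of values, with a median of 0.78, of which 12 were called and 10 kept their call. The exceptions were HXT2, whose change of 0.77 lost its call without N2 replicate 1 or control replicate 2 (adjusted p up to 0.021), and SNF3, the sensor of low glucose, whose change of 0.65 lost it without N2 replicate 1 or 3 or control replicate 2 or 3 (up to 0.044). HXT6 and HXT7, nearly identical high-affinity transporters that cannot be told apart here, had 0.75, 0.61 and 0.65 in N2, against -1.0, -0.83 and -1.0 in the control. All 3 N2 arrays lay more than 1 unit above all controls, and the change was 1.61 ± 0.09 (adjusted p = 5.13e-13). HXT3, a low-affinity transporter adjacent to HXT6, rose by 1.61 ± 0.12, and HXT4 rose by 1.25 ± 0.12. HXT13, a transporter of the group linked to polyol uptake, had 0.10, -0.27 and 0.36 in N2 and -1.60, -1.76 and -1.52 in the control, a rise of 1.69 ± 0.17. HXT17 of the same group rose by 1.64 ± 0.16, and HXT15 and HXT16 by 1.24 ± 0.13. HXK1, a hexokinase repressed in high glucose, rose by 1.45 ± 0.13, and EMI2, a relative of glucokinase, by 1.03 ± 0.12. Maltose genes lay outside this list: the permeases MAL31 and MAL11 rose by 1.86 and 1.22.

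The genes of galactose use gave 2 calls. Of 9 measured, GCY1, an aldo-keto reductase, and GAL2, the galactose permease, were called, at 0.74 ± 0.08 and 0.68 ± 0.11, and all 9 had a change above 0, with a median of 0.47. GAL2 lost its call without any 1 of the 6 arrays (adjusted p up to 0.17), so only GCY1 held. Glycolytic genes gave no call among 27, with a median change of 0.02.

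Storage carbohydrate genes were also among the rises. Of 14 glycogen genes 5 were called higher (35.7%, against 2.06% of all genes) and none lower (median 0.69, or 0.33 without replicate 3 of both groups). All 5 kept their call with any array left out. GSY1, one of the glycogen synthases, had 0.52, 0.27 and 0.39 in N2, against -0.92, -1.60 and -1.84 in the control (1.85 ± 0.15, adjusted p = 9.57e-09), and its partner isoform GSY2 rose by 0.97. GAC1, which brings protein phosphatase 1 to glycogen synthase, rose by 2.01 ± 0.19, GLC3, the branching enzyme, by 1.67 ± 0.19 and PGM2, the main phosphoglucomutase, by 1.54 ± 0.14. The phosphorylase GPH1, which breaks glycogen down, changed by 0.83 and was not called. Outside the list, IGD1, an inhibitor of glycogen debranching, rose by 1.62, and GIP2, another phosphatase regulator, by 1.19. Of 6 trehalose genes 3 were called higher, against 2.06% of all genes, and none lower (median 0.77). TSL1, a regulatory subunit of the synthase complex, rose by 1.32 ± 0.16. TPS2, trehalose phosphate phosphatase, had 0.26, 0.33 and 0.09 in N2 and -0.46, -0.82 and -1.12 in the control, a rise of 1.03 ± 0.14. TPS1, the synthase, changed by 1.02 ± 0.15, but its call was kept only when control replicate 1 was the array left out (adjusted p up to 0.027).

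**Figure D3:**
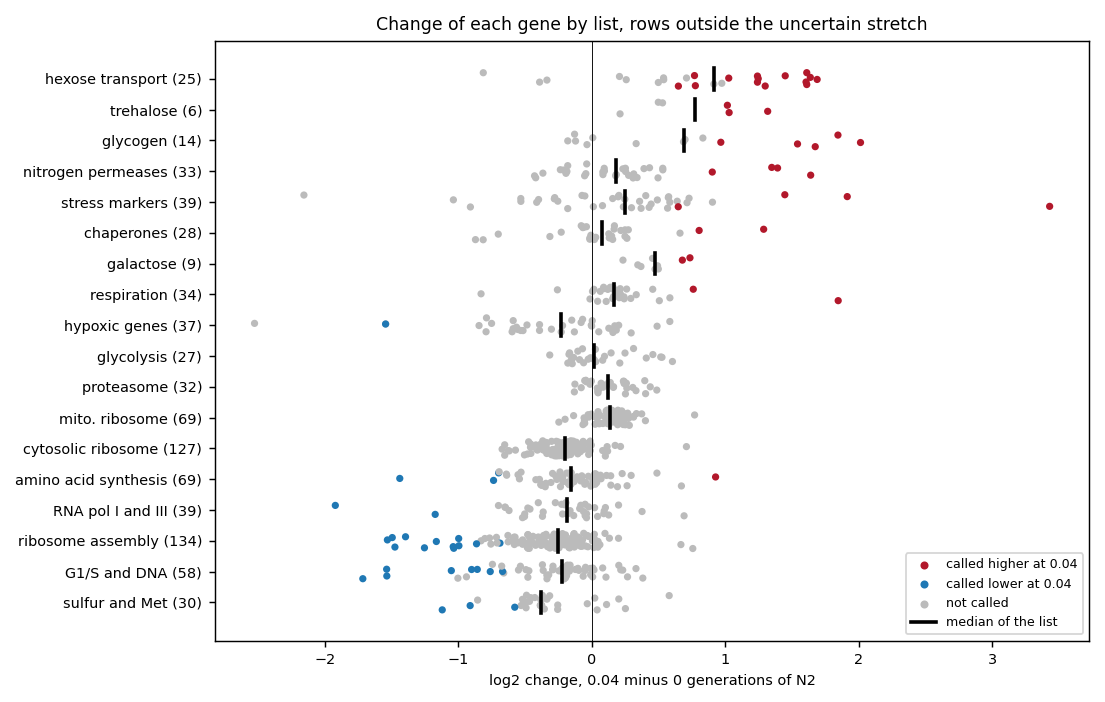
Log2 change at 0.04 generations (x axis) of each measured gene in 18 lists (rows, with the number of genes outside the uncertain stretch), red for called higher, blue for called lower, grey for not called, and a black bar at the median. Hexose transport has its median at 0.92 and 14 called genes, and the called falls gather in ribosome assembly (12) and in G1/S and DNA genes (8). The row of hypoxic genes includes NCE103 (blue).

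JEN1, CYB2 and DLD1, which act in the uptake and oxidation of lactate, were called higher, and were grouped after their values were seen. JEN1, the lactate and pyruvate permease, had 2.02, 1.52 and 1.74 in N2, against -0.23, -0.44 and -0.48 in the control, a rise of 2.14 ± 0.11 (adjusted p = 2.09e-13), and was the only call in its list of 20 genes of acetate, glycerol and alternative carbon use, whose median was -0.06 with 12 genes at or below 0. CYB2, the mitochondrial L-lactate dehydrogenase that feeds cytochrome c, had 2.19, 1.93 and 1.94 in N2 and -0.03, 0.39 and 0.17 in the control (1.85 ± 0.17, adjusted p = 1.86e-07). In both, the N2 arrays stood apart from the controls by far more than the spread within either group. DLD1, the D-lactate dehydrogenase, changed by 0.76 ± 0.12 and lost its call without N2 replicate 1 or 2 or control replicate 1 or 3 (adjusted p up to 0.083). CYB2 and DLD1 were the only calls among 34 genes of respiration, whose subunits of the respiratory chain and ATP synthase gave none (list median 0.17). In the list of 32 genes of the tricarboxylic acid cycle and the retrograde response the single call was CIT2, the peroxisomal citrate synthase, at 0.82 ± 0.13, which was lost without any array other than control replicate 1 (adjusted p up to 0.24).

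Nitrogen genes gave 4 rises and no fall among 33 (median 0.18), against 2.06% of all genes called higher and 1.43% lower. All 4 kept their call with any array left out. BAP2, a permease of branched-chain amino acids, had 1.12, 1.08 and 0.84 in N2 and -0.40, -0.76 and -0.72 in the control, a rise of 1.64 ± 0.12. DUR3, the urea permease, had 1.61, 1.33 and 1.39 in N2, against -0.05, 0.35 and -0.02 in the control (1.35 ± 0.12), and DUR12, the urea amidolyase that uses what DUR3 imports, rose by 1.39 ± 0.11. The groups were apart in each. AGP1, a broad amino acid permease, rose by 0.90 ± 0.08. TPO4, a plasma membrane exporter of polyamines, was the only call among 19 membrane pumps (1.54 ± 0.11). Of 22 autophagy genes ATG20 and ATG4 were called at 0.74 and 0.62, and both calls were kept only when N2 replicate 3 was the array left out (adjusted p up to 0.087 and 0.082).

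Some markers of the general stress response were among the rises. Of 39 genes 4 were called higher, against 2.06% of all genes, and none lower (median 0.25): ISF1, TMA10, RTC3 and UBI4. TMA10, a ribosome-associated stress gene, rose by 1.91 ± 0.13, RTC3 by 1.45 ± 0.17 and UBI4, the polyubiquitin gene, by 0.65 ± 0.08. Common stress markers such as CTT1 (catalase T, 0.43) and DDR2 (0.57) were not called, and SIP18 was at -2.16 without a call. Of 28 chaperone genes 2 were called higher, against 2.06% of all genes. HSP42, a small heat shock protein, rose by 1.29 ± 0.15 and HSP104, a disaggregase, by 0.81 ± 0.12, the second without its call when N2 replicate 1 or 2 or control replicate 3 was left out (adjusted p up to 0.055). The chaperone median was 0.08, HSP12 stood at 0.26 and HSP26 at -0.70, and neither was called. No gene was called among 27 of oxidative defence, 32 of the proteasome and 26 of beta-oxidation, with medians of 0.09, 0.13 and 0.14.

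Of 138 measured regulators outside the uncertain rows 6 were called higher and 4 lower, against 2.06% and 1.43% of all genes. STP4, a zinc finger protein of the family that controls amino acid permease genes, had 1.57, 1.48 and 1.47 in N2, against -0.57, -0.90 and -1.28 in the control, a rise of 2.42 ± 0.13 (adjusted p = 8.61e-13). TOS8, a homeodomain protein, rose by 1.35 ± 0.16 and RPI1 by 1.21 ± 0.15. MGA1, related to heat shock factor, had 2.25, 1.29 and 1.44 in N2 and 0.47, -0.42 and -0.51 in the control. It was apart but with a wide spread in both groups, and its rise of 1.81 ± 0.27 lost its call without N2 replicate 1 or control replicate 2 or 3 (adjusted p up to 0.045). TYE7, an activator of glycolytic genes, and ACA1 changed by 0.88 and 0.54, and lost their calls without N2 replicate 1 or 2 and without control replicate 1 or 2 (TYE7) or 1 or 3 (ACA1), with adjusted p up to 0.14 in both.

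The deepest fall among called genes was in a regulator, YOX1, the homeobox repressor of genes of the M/G1 interval. It had -1.66, -1.61 and -1.39 in N2, against 0.35, 0.55 and 0.40 in the control, a change of -1.99 ± 0.12 (adjusted p = 5.42e-11). NRG1, a repressor of glucose-repressed and alternative carbon genes, had -1.08, -0.93 and -0.82 in N2 and 0.31, 0.23 and 0.20 in the control (-1.19 ± 0.10, adjusted p = 9.04e-09). Both were tight within each group. NRG2, its relative, changed by -1.09 ± 0.17 and lost its call without N2 replicate 1 or 2 or control replicate 1 (adjusted p up to 0.11). HCM1, a forkhead activator of S phase genes, changed by -1.03 ± 0.17 and lost its call without any 1 of the 6 arrays (up to 0.14). The transcripts of MSN2 and MSN4 themselves changed by -0.26 ± 0.17 and 0.45 ± 0.12 and were not called, and ACT1 and TDH3, widely used as controls, changed by 0.09 ± 0.09 and -0.14 ± 0.13.

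Ribosome assembly gave 12 of the 75 falls. Of its 134 measured genes these 12 were called lower, against 1.43% of all genes, and none higher. Of the 12, 9 kept their call with any array left out. The arrays were apart and lower in N2 in 63 of the 134, against 15.8% of all genes, and the list median was -0.25. BFR2, needed for early processing of small-subunit rRNA, had -1.13, -0.65 and -0.85 in N2, against 0.48, 0.72 and 0.75 in the control (-1.53 ± 0.11, adjusted p = 1.05e-09). UTP18, of the small-subunit processome, had -1.13, -1.02 and -0.77 in N2 and 0.52, 0.34 and 0.70 in the control, a change of -1.49 ± 0.12. The groups lay more than 1 unit apart in both genes. DBP8, an RNA helicase, changed by -1.47 ± 0.17 and SSF1, of the large-subunit pathway, by -1.39 ± 0.17. CGR1, DBP7 and REX4 lost their calls in at least 1 omission, with adjusted p up to 0.059, 0.050 and 0.017: CGR1 without N2 replicate 1 or 2 or control replicate 1 or 2, DBP7 without any array, and REX4 without N2 replicate 2 or control replicate 3. SHQ1, which assembles the particles that modify rRNA, and AIR1, of the nuclear RNA surveillance complex, fell by 1.54 and 1.58 on the log2 scale.

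RRN11, a subunit of the core initiation factor of RNA polymerase I, had -0.92, -1.24 and -1.08 in N2, against 0.83, 0.80 and 0.91 in the control (-1.92 ± 0.22, adjusted p = 2.31e-05). RPA12, a subunit of the enzyme, changed by -1.17 ± 0.17 and lost its call without N2 replicate 1 or 2 or control replicate 2 or 3 (adjusted p up to 0.056). These were the 2 calls among 39 genes of polymerases I and III (median -0.18), against 1.43% of all genes called lower. Of 127 cytosolic ribosomal protein genes none was called, although 120 had a change at or below 0 and the median was -0.20. Of 69 mitochondrial ribosomal protein genes none was called either, and their median was 0.14.

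Genes of the G1/S transition and DNA replication gave 8 falls and no rise among 58 (median -0.22), against 1.43% of all genes called lower. Of the 8 falls, 4 kept their call with any array left out. CDC6, which loads the replicative helicase at origins, had -1.70, -1.95 and -1.19 in N2, against 0.16, 0.19 and -0.05 in the control (-1.71 ± 0.13, adjusted p = 2.63e-09). MCD1, the cohesin kleisin, had -1.39, -1.54 and -1.18 in N2 and 0.17, 0.05 and 0.28 in the control, a change of -1.54 ± 0.11. The S phase cyclin CLB5 fell by 0.86 and POL32, a subunit of DNA polymerase delta, by 0.67 on the log2 scale. CLB6, the other S phase cyclin, ranged from -2.57 to -1.17 in N2, against -0.37 to -0.30 in the control, and kept its call only when N2 replicate 3 was left out (adjusted p up to 0.022). CLN1, a G1 cyclin, changed by -1.05 ± 0.16, POL12 by -0.90 ± 0.13 and DPB2 by -0.76 ± 0.11. CLN1 kept its call only without N2 replicate 1, POL12 only without N2 replicate 2 or control replicate 1, and DPB2 lost it without N2 replicate 2 or control replicate 3 (adjusted p up to 0.082, 0.047 and 0.016). SPT21, an activator of histone genes, fell by 1.91 on the log2 scale, while the 9 measured histone genes gave no call and had a median change of 0.33. CLB1, a mitotic cyclin adjacent to CLB6, was the 1 call among 16 G2/M genes (-0.96 ± 0.09).

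Biosynthetic lists gave few calls. Of 69 genes of amino acid synthesis 3 were called lower (4.35%) and 1 higher (1.45%), against 1.43% and 2.06% of all genes, and 2 of the 4 kept their call with any array left out. SER2, the last enzyme of serine synthesis, had -0.80, -1.06 and -0.76 in N2, against 0.43, 0.53 and 0.73 in the control (-1.44 ± 0.10, adjusted p = 4.32e-10). LEU2, of the leucine pathway and present as a mutant allele in this strain, rose by 0.93 ± 0.09. HIS1 and ASN1 kept their calls (-0.74 and -0.70) in only 1 of the 6 omissions, without control replicate 1 and without N2 replicate 1 (adjusted p up to 0.11 and 0.043). Purine and pyrimidine synthesis gave 2 falls among 36, against 1.43% of all genes. ADE4, the first committed enzyme of purine synthesis, had -0.05, -0.22 and -0.35 in N2 and 0.83, 1.00 and 1.11 in the control, a change of -1.19 ± 0.11, and ADE2 fell by 0.77. Of 30 sulfur and methionine genes 3 were called lower, against 1.43% of all genes (list median -0.38). MET2, homoserine acetyltransferase, had -1.96, -1.95 and -1.71 in N2, against -0.54, -0.71 and -1.01 in the control (-1.12 ± 0.15, adjusted p = 1.98e-04), MUP1, a methionine permease, fell by 0.91, and SAM2 changed by -0.58 ± 0.09 with its call lost without N2 replicate 1 or 2 or control replicate 1 or 2 (up to 0.072). ISU2, a scaffold for iron-sulfur clusters, fell by 1.19 and EXG1, a cell wall glucanase, by 1.00 on the log2 scale.

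Of 36 classical hypoxic genes measured, none was called at this time, 24 had a change at or below 0 and the median was -0.22: ANB1 stood at 0.59, HEM13 at -0.79 and TIR4 at -2.53, none of them called. The list also held NCE103, the carbonic anhydrase that yeast needs to grow in air, which is counted apart here, a choice made after its values were seen. It had 1.04, 1.17 and 1.16 in N2, against 2.50, 2.65 and 2.84 in the control (-1.54 ± 0.17, adjusted p = 7.55e-06). The groups were fully apart, and the call was kept with any array left out. The part of CO2 in the gas was not tested.

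Around the threshold, the rises with the weakest calls were CIT2, YGR127W and YLR257W (adjusted p = 0.00887, 0.00938 and 0.00985), and the nearest without a call were ORM2 and the uncertain rows GUP2 and LEA1 (0.0115, 0.0103 and 0.0115). Among the falls TAH11, HCM1 and DUG3 were just inside (0.00595, 0.00718 and 0.00995) and MSA1, KTI11 and ADO1 just outside (0.0110, 0.0112 and 0.0120). The smallest called change was a fall of 0.47 in ELO3.

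Some called genes lie side by side on the chromosome. Leaving out pairs that share all their values, such as HXT6 and HXT7, 7 adjacent pairs were found among the rises: MAL33 and MAL31, DIN7 and AKR1, HXT6 and HXT3, YLR257W and GSY2, TMA10 and NMA1, CYB2 and YML053C, and YPK2 and PGM2. Of the 214 neighbours of the 108 higher genes 14 were called higher, or 6.54%, against 2.06% of all genes. Of the 150 neighbours of the 75 lower genes 6 were called lower, in the pairs BUD31 and HCM1, CLB1 and CLB6, and CSI2 and TOP1, or 4.0% against 1.43%. Adjacent genes can share a promoter or overlap, and 1 probe per gene does not separate them.

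The following samples of the same culture series show what became of these genes. All of them were set against the same 3 control arrays, so they are not independent of the first change, and the values are given side by side. Differences from 0.04 generations also reuse the 0.04 arrays on which the genes were called, a choice that favours a turn back. Between 0.04 and 0.08 generations 226 genes rose and 386 fell (4.03% and 6.88% of 5609), among them 38 of the 115 early rises and 24 of the 85 early falls going further. At 0.08 generations 591 genes (10.5%) were higher and 666 (11.9%) lower than the control, at 0.13 generations 579 (10.3%) and 723 (12.9%), at 0.25 generations 209 (3.73%) and 250 (4.46%), at 1 generation 278 (4.96%) and 364 (6.49%), and at 3 generations 304 (5.42%) and 386 (6.88%). Of the 108 early rises 97 were called higher at 0.08 generations, 85 at 0.13, 48 at 0.25, 22 at 1 and 28 at 3 generations, and their median change was 1.21, 1.60, 1.27, 0.63, 0.33 and 0.31 at 0.04, 0.08, 0.13, 0.25, 1 and 3 generations. Of the 75 early falls 61, 44, 16, 7 and 4 were called lower at 0.08, 0.13, 0.25, 1 and 3 generations, with a median of -0.99 at 0.04, -1.39 at 0.08, -0.86 at 0.13 and -0.36 at 0.25 generations. Both medians were thus farther from 0 at 0.08 than at 0.04 generations: 37 of the 108 rose significantly more by 0.08 generations and 3 turned back, and 22 of the 75 fell more and 7 turned back.

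Transporters and storage genes were among those that went further. HXT13 stood at 1.69 above the control at 0.04 generations and at 3.35 at 0.08, and HXT6 and HXT7 at 1.61 and 2.45. PGM2 stood at 1.54, 2.96 and 3.20 at 0.04, 0.08 and 0.13 generations and RGI1 at 3.14, 4.60 and 4.43. Ribosome assembly genes went on falling: the 134 had a median of -0.25 at 0.04 and -1.48 at 0.08 generations, and 12 and 108 of them were called lower, and SSF1 stood at -1.39 and -3.26. The 25 hexose transport genes had a median of 0.92 and 1.62 at the same times.

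Other genes had turned back by 0.13 generations. The p-values here only describe that turn, since it was measured from the 0.04 arrays on which these genes were called. STP4 stood at 2.42, 1.39 and 0.60 above the control at 0.04, 0.08 and 0.13 generations, and the change between 0.04 and 0.13 was -1.82 ± 0.13 (adjusted p = 8.12e-10). NRG1 stood at -1.19, -0.22 and 0.04 at the same times (1.23 ± 0.10 between 0.04 and 0.13, adjusted p = 4.56e-09), and its fall was called only in this first of the 10 later samples. YOX1 stood at -1.99, -1.05 and -0.32, and CDC6 at -1.71, -0.71 and 0.36. JEN1 stood at 2.14, 2.00 and 0.87 at 0.04, 0.08 and 0.13 generations and at -1.73 at 3 generations, and CYB2 at 1.85, 1.90 and 0.38 and then at -4.42. Both were called higher at the start and lower at 1 and 3 generations. ISF1 stood at 3.43, 2.32 and 1.34, and SDD1 at 1.95, 1.60 and 0.67. Sulfur genes turned round: MET2 stood at -1.12, 0.40 and 2.85 and MUP1 at -0.91, 0.03 and 1.73, while the median of the 30 sulfur genes was -0.38 at 0.04 and 1.19 at 0.13 generations, and DUG3, of glutathione breakdown, stood at -0.55 and 1.44. NCE103 went the other way and stayed low, at -1.54, -3.22 and -3.28 and at -1.78 after 3 generations.

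**Figure D4:**
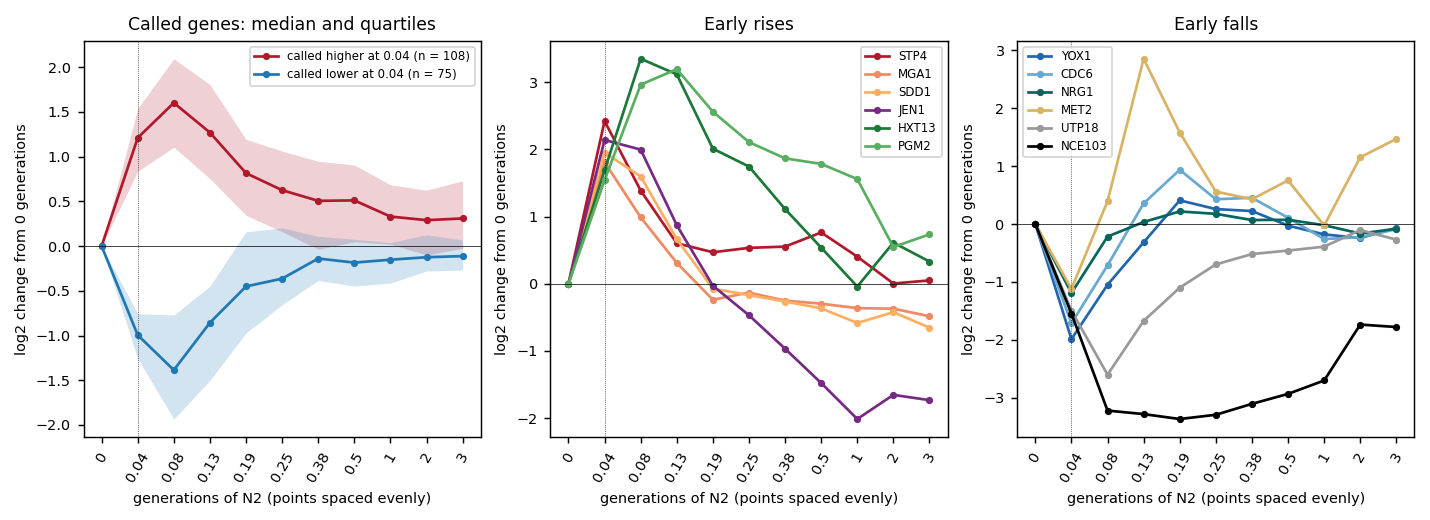
Log2 change from 0 generations (y axis) at 10 later times (x axis, spaced evenly, dotted line at 0.04 generations), as the median and quartiles of the called genes (left), 6 early rises (centre) and 6 early falls (right), each point the mean of up to 3 arrays. The median of the rises is 1.21 at 0.04 and 1.60 at 0.08 generations, NRG1 is back at 0.04 by 0.13 generations, and JEN1 ends at -1.73.

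The series also holds experiments that sampled 0.04 generations with their own aerobic controls, 3 arrays in each group, and so allow each change to be set against the one in N2 and galactose. Samples were matched by generations and not by minutes, so the time elapsed may differ between these experiments. The called genes were chosen on the N2 galactose arrays, and these arrays also enter each test of a difference. Differences with the larger change in N2 and galactose are thus favoured by that choice. These were wild-type cells in galactose treated with antimycin A, an inhibitor of the cytochrome bc1 complex, at 1 µM in air, wild-type cells in glucose medium shifted to N2, and an msn2/4 mutant in galactose shifted to N2. On the 6 wild-type arrays MSN2 stood between -0.35 and 0.32 and MSN4 between -0.61 and 0.10, against -5.68 to -4.22 and -3.32 to -1.30 on the 6 arrays of the mutant.

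Antimycin A in air gave changes of the same direction in nearly all of these genes. Of 106 early rises measured there, 104 had a change above 0 and 78 were themselves called higher (73.6%, against 3.83% of all rows outside the uncertain run), and their median change was 1.20 in N2, against 1.44 after antimycin A. Of the 75 early falls 74 had a change below 0 and 47 were called lower (62.7%, against 2.59%), and none was called in the opposite direction. Their median change was -0.99 in N2, against -1.16 after antimycin A. The uncertain run was placed by low agreement with antimycin A and the mutant, so leaving it out favours agreement. With its rows kept, 108 of 113 rises and 77 of 85 falls had the same direction, and 1 fall was called higher. Of these, 5 rises and 7 falls differed between treatments. Of the 181 differences between both treatments 7 passed the test, against 0.728% of all rows outside the run. TPS2, TSL1, RTC3 and GIP2 rose less in N2 than after antimycin A (TPS2 by 1.03 and 2.19, difference -1.16, adjusted p = 6.9e-04; GIP2 by 1.19 and 2.90). REI1 and YMC2 fell less in N2 (by -0.78 and -0.93, against -1.70 and -1.78). NCE103 was called in N2 and not after antimycin A: after antimycin A it had 1.62, 2.69 and 2.25, against 1.79, 1.82 and 2.26 before it, a change of 0.23 ± 0.26, and the difference of the changes was -1.77 (adjusted p = 0.00725). CYB2, DUR3 and DUR12 also changed little after antimycin A (0.16 ± 0.85, 0.12 ± 0.26 and 0.08 ± 0.29), but their differences from N2 did not pass the test (1.68, 1.23 and 1.31, adjusted p = 1, 0.77 and 0.91). NRG1 changed by -0.34 ± 0.16 after antimycin A, and its difference of -0.85 did not pass either (adjusted p = 0.2).

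In glucose most of these genes did not change in the same direction. Of the 108 early rises 1 was called higher in glucose and 16 lower, 18 had a change above 0, and their median was -0.39 (0.115% of all rows outside the uncertain run were called higher in glucose and 1.11% lower). Of the 75 early falls 1 was called lower and 1 higher, and their median was 0.22. The difference between the sugars passed the test for 85 of the rises and 50 of the falls, in each case with the larger change in galactose, against 4.28% of all rows outside the run. Calling the genes on the galactose arrays favours such differences. Some of the largest rises in galactose were falls in glucose: ISF1 changed by 3.43 and -2.70 (difference 6.13 ± 0.41), RGI1 by 3.14 and -2.65 and GSY1 by 1.85 and -1.99. GSY1 had -2.42, -2.55 and -2.87 in N2 and glucose, against -0.68, -0.58 and -0.60 in the aerobic glucose control, so the groups were fully apart in the opposite order. TYE7 was the gene called higher in both (0.88 and 0.72). NCE103 was called lower in both sugars, with changes of -1.54 in galactose and -1.53 in glucose (difference -0.02 ± 0.24), with 1.59, 0.82 and 0.81 in N2 and 2.67, 2.57 and 2.56 in the aerobic control in glucose.

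The msn2/4 mutant showed most of the early changes in the same direction. Of 107 early rises measured, 101 had a change above 0 and 7 were called higher (0.343% of all rows outside the run were), and their median change was 1.21 in the wild type, against 0.92 in the mutant. Of the 75 early falls 73 had a change below 0 and 8 were called lower (0.572% of all rows were), and their median change was -0.99 in the wild type, against -1.19 in the mutant. With the rows of the uncertain run kept, 107 of 114 rises and 78 of 85 falls had the same direction. Leaving the run out favours agreement here too, since the mutant was used to place it. The median SE was 0.12 in the wild type and 0.18 in the mutant. The difference between strains passed the test for 7 rises and 1 fall, against 0.667% of all rows outside the run. MRK1 rose by 2.42 in the wild type and by 0.92 in the mutant (difference 1.50 ± 0.20, adjusted p = 2.75e-05), and MAL31 (1.86 and 0.51), PIC2, a mitochondrial carrier (1.30 and -0.18), HXT17 (1.64 and 0.27), ECM3 (1.43 and 0.33) and YLR297W (1.28 and 0.18) also rose less in the mutant. ICS2 rose by 0.78 in the wild type and by 2.44 in the mutant, where it had 2.47, 1.96 and 2.24 in N2 and -0.09, -0.44 and -0.11 in the control, and its wild-type call was lost without N2 replicate 2 or control replicate 2 (adjusted p up to 0.018). The fall of ELO3, a fatty acid elongase, was smaller in the wild type (-0.47 and -1.69), and its own call in the wild type was kept only without N2 replicate 3 (adjusted p up to 0.035). GSY1, GAC1 and JEN1 changed by 0.84, 0.65 and 0.75 in the mutant, and their differences from the wild type did not pass the test.

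**Figure D5:**
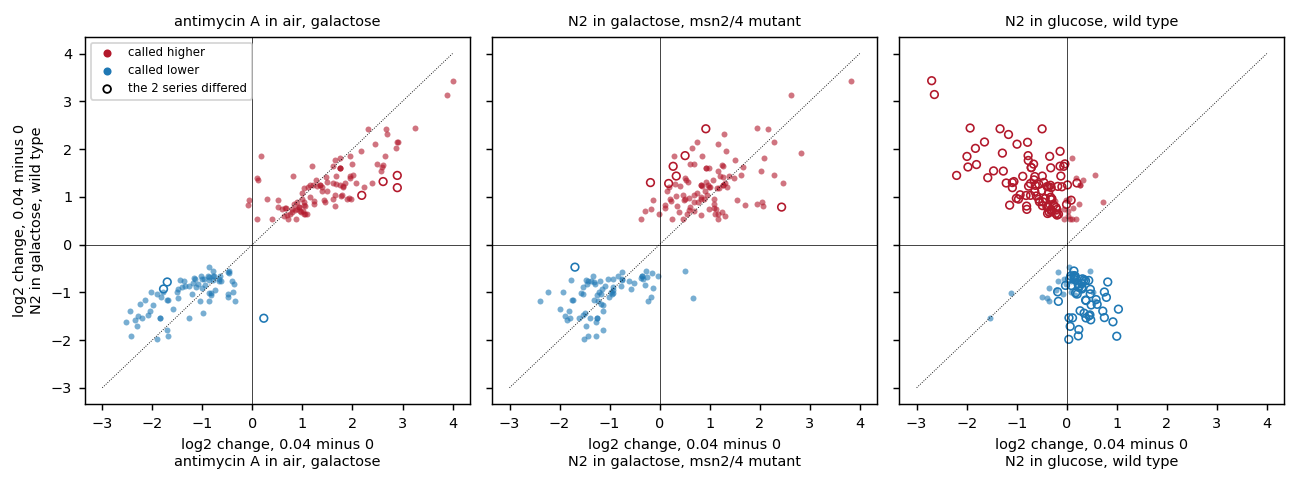
Log2 change at 0.04 generations in N2 and galactose (y axis) against the change at 0.04 generations of antimycin A in air, of N2 in the msn2/4 mutant and of N2 in glucose (x axes), for the genes called higher (red) or lower (blue) in N2 and galactose outside the uncertain stretch, with rings where the 2 changes differed. Of the rises 104 of 106 lie right of 0 with antimycin A, 101 of 107 in the mutant and 18 of 108 in glucose.

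The uncertain rows gave 7 of the 115 rises and 10 of the 85 falls, among them the rows labelled TCO89 (1.83), RDS2 (0.79), TFC8 (0.95), CET1 (-1.58), MLH3 (-1.43), GYP5 (-1.42), RPL21B (-1.09), GDH1 (-0.96), HHO1 (-0.89) and VMA13 (-0.52). These 359 of the 5609 rows held 25 of the 63 differences from antimycin A, 26 of the 61 from the mutant and 19 of the 243 from glucose, where the run is in doubt on both sides. The run was placed where N2 agreed least with antimycin A and the mutant, which favours differences from these 2 series inside it.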

How the data were processed

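Transcript levels were measured on two-colour oligonucleotide arrays. Spot intensities were read with GenePix Pro, and the authors corrected them for background and normalized them in SAS. The deposited values are log ratios of the Cy3 sample over the Cy5 reference pool, 1 per open reading frame, and were read as log2, since base 2 left the least dependence of the mean linear level on variability in a check of the values. The base is not stated in the sources used here. Direction, sample over pool, follows from the dyes in the labels, and MSN2, deleted in the mutant, is strongly negative on all of its arrays. Arrays of the time course correlated as low as -0.53, and both groups of each change were set against the same pool. The pools differed between series: the labels name 1 pool for N2 in galactose and in glucose, and another, of anaerobic and aerobic cultures, for antimycin A. The precision is limited by 3 arrays per group.

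Group means were fitted with limma 3.58.1 in R 4.3.3 over the 33 arrays of the time course to 3 generations, which share 1 estimate of the spread, for genes with at least 2 values in each group. All p-values were adjusted over all genes by Holm's step-down Bonferroni method, as in the study's methods, with a threshold of 0.01. Differences from antimycin A, glucose and the mutant were tested as contrasts of contrasts in joint fits. The antimycin A control labels list the inhibitor, and the methods place that control before its addition. No array was imputed, and none was dropped outside the omissions named below. The fits were tested on simulated data. Names came from the RefSeq annotation for 5597 of 5609 rows, and 99 rows share all their values with another row.

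Genes named are the 12 largest rises and falls among called genes whose arrays were apart, up to 4 called genes of each list, called regulators, the genes that turned back most by 0.13 generations, up to 6 per difference test, MSN2, MSN4, ACT1 and TDH3, and those nearest the threshold. Further genes were named after their values were seen. The members and lists were chosen with earlier results of these data known. The run of uncertain rows was defined, and left out as an alternative, after seeing the data.

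Alternatives were Benjamini-Hochberg adjustment, a 2-fold minimum, median centring, quantile normalization, complete values, only the arrays compared, robust moderation, all arrays to 6 generations, a replicate block and the omission of replicates.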

Additional observations from a re-analysis of the deposited data

Results flagged for a closer look

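These results are called genes whose change in N2 and galactose differed from the change at the same number of generations in another experiment of the series. The difference itself was tested (limma, Holm-adjusted over all genes). Differences are the change in N2 and galactose minus the other change, on the log2 scale. The genes were called on arrays that also enter these tests, which favours larger changes in N2 and galactose. All such genes are given for antimycin A and the mutant, and the 6 with the largest difference for glucose, where 135 called genes outside the uncertain run passed the test.

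Against antimycin A in air 7 genes outside the run differed: GIP2 (-1.71 ± 0.18), RTC3 (-1.45 ± 0.23), TSL1 (-1.29 ± 0.23), TPS2 (-1.16 ± 0.19), NCE103 (-1.77 ± 0.32), REI1 (0.92 ± 0.16) and YMC2 (0.85 ± 0.14). In the run the rows YPL247C (-2.84), GYP5 (-1.72), MLH3 (-2.05), CET1 (-1.77) and TCO89 (2.01) differed.

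Against N2 in glucose the differences were 6.13 ± 0.41 for ISF1, 5.79 ± 0.30 for RGI1, 4.37 ± 0.33 for YMR206W, 3.84 ± 0.26 for GAC1, 3.84 ± 0.19 for GSY1 and 3.79 ± 0.48 for ATO2. All 6 genes rose in galactose, and in glucose their changes lay between -2.70 for ISF1 and -1.64 for ATO2.

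Against the msn2/4 mutant 8 genes outside the run differed: MRK1 (1.50 ± 0.20), PIC2 (1.48 ± 0.18), HXT17 (1.37 ± 0.24), MAL31 (1.35 ± 0.21), ECM3 (1.10 ± 0.19), YLR297W (1.10 ± 0.19), ELO3 (1.22 ± 0.21) and ICS2 (-1.65 ± 0.22). In the run the rows TCO89 (1.60), PBI1 (1.18), GYP5 (-1.82), MLH3 (-2.09), CET1 (-1.64) and MRX11 (-1.40) differed.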

How the results depend on the processing

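The first change gave 200 calls as reported, 704 with Benjamini-Hochberg adjustment at 0.01, 110 with a 2-fold minimum and 32 from the 6 arrays alone. It gave 69 to 203 when arrays were left out: 131, 69 and 97 without replicate 1, 2 or 3. These replicates were left out at every time point of the fit. The step between 0.04 and 0.08 generations gave 612, and 1706, 269 and 122 in the same settings, 307 after quantile normalization and 179 to 291 with replicates left out. Antimycin A gave 366, with 1083 by Benjamini-Hochberg, 77 from only the arrays of the groups compared and 131 to 235 with replicates left out. In the same settings N2 in glucose gave 70, with 166, 7 and 27 to 38. The mutant gave 54, with 844, 18 and 1 to 8, and 84 after quantile normalization. The difference from antimycin A gave 63 calls, with 204, 11 and 21 to 50, that from glucose 243, with 699, 56 and 103 to 173, and that from the mutant 61, with 328, 10 and 11 to 22. Without the uncertain rows the differences from antimycin A and the mutant fell to 38 and 35 calls. Of 1887 values recomputed for the 100 named genes 354 lost their call, 27 gained one and none was reversed. Of 234 list medians 22 moved by more than the replicate spread or changed sign from a value within that spread.

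Whether replicate numbers pair the samples is not stated in the sources used. Deviations of arrays with the same number correlated at 0.10, 0.07 and 0.09, against -0.12 to 0.03 for arrays of different numbers. With the replicate number as a block the first change gave 220 calls, 195 of them among the 200, and each N2 array correlated best with the control of its own number, a hint from the data and not the design.

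Levels cannot be compared between genes, a change common to all transcripts is not seen, and ratios of dim spots carry an unknown share of background.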
